A study of Homo sapiens with 8 samples.

Results

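Regions acetylated at histone H3 lysine 27 (H3K27ac) in control A549 cells that lost their peak call with only 1 of 2 siRNAs against CEBPB are described here. The members were chosen by the peak calls themselves. Peaks of 4 H3K27ac lists were merged wherever they overlapped by 1 bp or more, and a region was kept if it had a peak in both controls and in exactly 1 of the 2 knockdown libraries. Of 60669 merged regions on chromosomes 1 to 22 and X, 32069 had a peak in both controls, and 3686 of these were members. The siRNA-1 library had no call in 1908 of the 3686, which are called siRNA-1-only regions below, and the siRNA-2 library had no call in the other 1778, called siRNA-2-only regions. Since the calls selected the regions, their counts, widths, strengths and positions are given as a description with no test.

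A549 is an established human lung adenocarcinoma line in which NRF2, a regulator of the oxidative stress response, is constitutively active. The cells received a control siRNA (2 libraries, control 1 and control 2), CEBPB siRNA-1 (1 library) or CEBPB siRNA-2 (1 library), and were harvested 48 h after transfection with a medium change on the way. All groups thus share the line, the medium and a transfection with an siRNA, and differ in which siRNA was given. No label states separate cultures for the 2 controls, whose differences may thus be technical, and the extent of the CEBPB knockdown itself is not among the measurements.

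H3K27ac is placed on nucleosomes by acetyltransferases such as p300 and CBP and marks promoters and enhancers in use. Transcription factors bound at an enhancer recruit these enzymes, and a peak therefore often covers several nucleosomes on both sides of the bound site. CEBPB is a basic leucine zipper factor of the C/EBP family that binds DNA as a dimer with other family members or with other leucine zipper factors, and in lung epithelium it takes part in inflammatory and differentiation programmes. An siRNA guides cleavage of its target messenger RNA and can also lower other transcripts that pair with its seed, which is why knockdowns are commonly made with more than 1 siRNA.

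The lists had 45537 and 45651 peaks in control 1 and control 2, 47370 with siRNA-1 and 48216 with siRNA-2. Peaks covered 67.9 Mb (control 1), 62.1 Mb (control 2), 70.4 Mb (siRNA-1) and 61.7 Mb (siRNA-2), so that the 2 libraries numbered 1 in the labels had more bases called than the 2 numbered 2, whatever the treatment. Without read counts in the lists, depth is unknown, and a missing region is one that was not called, which does not mean that acetylation was absent. Each siRNA has 1 library, so the siRNA, its library, its label number and its unknown depth cannot be told apart.

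In the deposited lists the numbers of regions missing with only siRNA-1 and only siRNA-2 were close, and how far apart they were depended on how the lists were treated. The counts by strength differed: the strongest regions were missing with siRNA-1 more often than with siRNA-2. Regions with a peak in both controls numbered 32069, and 1908 were siRNA-1-only (5.95%, Wilson 95% interval 5.70 to 6.21%) and 1778 were siRNA-2-only (5.54%, 5.30 to 5.80%). Together they made 11.5%. Another 4250 regions had no call with either siRNA (13.3%), so siRNA-1 lacked a call in 19.2% in all and siRNA-2 in 18.8%. The intervals give the counting error over regions, which are no replicates of a treatment. The order of the 2 sets was not stable. There were 2285 siRNA-1-only and 2540 siRNA-2-only regions when a call had to cover 50% or more of the bases called in both controls, and 1030 and 1245 when peaks under a −log10 q of 10 were dropped from every list. Without control 2 the numbers were 2622 and 2700. With the weakest peaks dropped until all lists had the same called length, they were 3808 and 440, and that step took peaks mainly from the lists with the most bases called, control 1 and siRNA-1.

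The same count was made with the controls in the place of the siRNAs. Of 30128 regions called in both knockdown libraries, 759 were missing from control 1 only (2.52%) and 1133 from control 2 only (3.76%). Both numbers were below those of the siRNAs. A further count took regions that were strong wherever they were called, with a best −log10 q of 10 or more in all 3 remaining lists. Such regions numbered 202 for siRNA-1 and 165 for siRNA-2, and 12 for control 1 and 20 for control 2. They made 10.6% of siRNA-1-only and 9.28% of siRNA-2-only regions. Of regions missing from control 1 only and control 2 only they made 1.58% and 1.77%. The filter drew on both controls and 1 siRNA library for the siRNA sets, and on both siRNA libraries and 1 control for the others. The share of all regions passing each filter is not given, so these counts do not measure how far siRNAs and controls differ. The plot of regions missing from exactly 1 library sets these counts side by side.

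**Figure D1:**
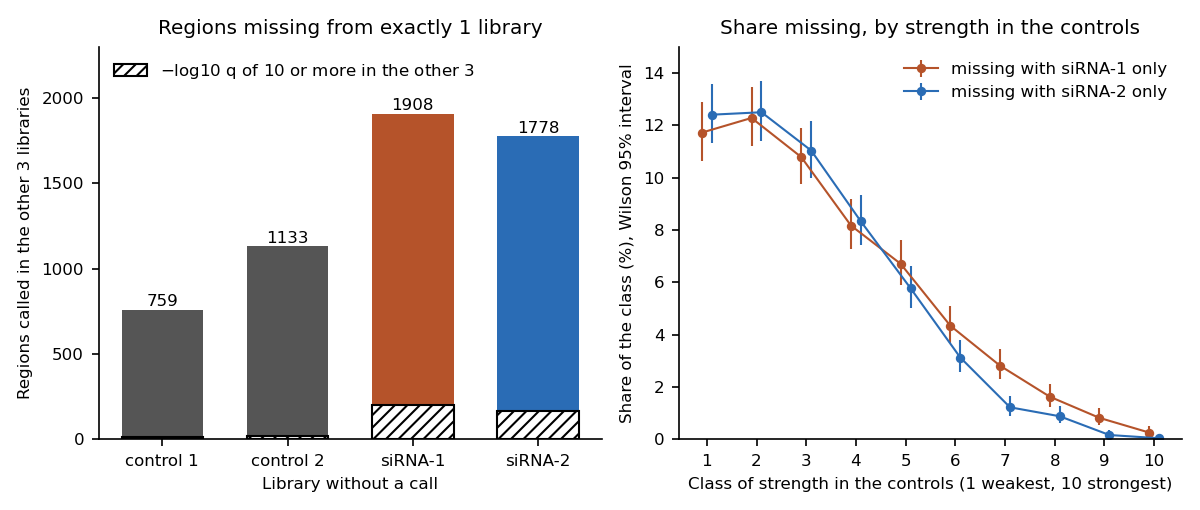
Left, number of merged regions called in 3 of the 4 libraries, by the library without a call (bars from 0); the hatched part has a best −log10 q of 10 or more in all 3 remaining libraries. Right, percent of regions called in both controls that were missing with siRNA-1 only or siRNA-2 only, in 10 equal classes of strength, with Wilson 95% intervals. The siRNA bars, 1908 and 1778, stand above the control bars, 759 and 1133, and in the upper classes the siRNA-1 line lies above the siRNA-2 line.

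Strength was taken as the lower of a region's best −log10 q in control 1 and in control 2. Fold enrichment and −log10 q, as given by the authors for each peak, serve only to describe and rank peaks within a list. Among the 20533 regions with a strength of 10 or more, called strong here, 612 were siRNA-1-only (2.98%, 2.76 to 3.22%) and 452 siRNA-2-only (2.2%, 2.01 to 2.41%), beside 704 missing with both (3.43%). With the 32069 regions in 10 classes of equal size, the 4 weakest classes held 1378 siRNA-1-only and 1420 siRNA-2-only regions. The 6 upper classes, from a strength of 11.5, held 530 and 358. In the 4 upper classes, from 24.9, there were 176 and 73, and in the 2 upper classes, from 60.9, there were 34 and 6. The imbalance therefore lay in the upper classes, where few regions of either set were found. More strong regions were siRNA-1-only than siRNA-2-only in every alternative run on that count, with differences from 111 to 1772 beside 160 in the deposited lists. Without control 2 the strong regions numbered 960 and 840. With a −log10 q of 10 required of every list, also that of the missing library, the difference was -215, in the other direction.

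The strongest siRNA-1-only region lay on chromosome 7 (hg19, 37703515 to 37709143), 5629 bp wide. Its fold enrichment was 58.2 in control 1, 51.5 in control 2 and 9.32 with siRNA-2, with no call with siRNA-1. Peaks covered 5355 and 5098 bp of it in the controls and 1900 bp with siRNA-2. The siRNA that kept the call thus had a shorter stretch called than either control. The nearest siRNA-1 peak was 175 kb away, and the best summits of the 2 controls were 5 bp apart.

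The next region lay on chromosome 5 (95827218 to 95830522), with fold enrichments of 39.8 and 43.6 in the controls and 5.14 with siRNA-2. Peaks covered 3305 and 2896 bp in the controls and 395 bp with siRNA-2. A region on chromosome 16 (84428033 to 84432930) was called over 4270 and 4319 bp in the controls and 1511 bp with siRNA-2, and was 100 kb from an siRNA-1 peak. In all 3, the siRNA-2 call was far shorter than either control call and the siRNA-1 call was absent.

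A region on chromosome 10 (128206457 to 128211808) kept more with siRNA-2, with 2785 bp called against 5133 and 5352 bp in the controls. A region on chromosome 8 (27106254 to 27108843) kept the most of the 10, with 1975 bp called with siRNA-2 against 2515 and 2493 bp. Its fold enrichment was 31.4 and 34.8 in the controls and 18.7 with siRNA-2. These differ from the chromosome 5 region in how much siRNA-2 left, although all were absent from the siRNA-1 list. The other 5 of the 10 strongest were on chromosome 1 (68451138 to 68455300), chromosome 3 (31328476 to 31332574 and 87309172 to 87315017), chromosome 6 (76166145 to 76171014) and chromosome 15 (50146543 to 50150587). The chromosome 1 region was 1.68 kb from an siRNA-1 peak.

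Over these 10 regions the called length ranged from 2515 to 5712 bp in control 1 (median 4184.5 bp), from 2493 to 5352 bp in control 2 and from 395 to 2785 bp with siRNA-2 (median 1518.5 bp). The siRNA-2 call was 12.7 to 78.9% of the control mean (median 35.8%). In each of the 10 the siRNA-2 call was shorter than both control calls, and the 2 controls lay close together. The 10 were picked for high values in both controls, which by itself favours both of these features. They do not stand for the whole set.

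The strongest siRNA-2-only region lay on chromosome 20 (4171044 to 4175656). It was enriched 31.0-fold in control 1, 26.2-fold in control 2 and 2.86-fold after siRNA-1. Peaks covered 4613 and 4288 bp in the controls and 296 bp with siRNA-1, and the nearest siRNA-2 peak was 17.3 kb away. With siRNA-1 too, little of this region was called. A region on chromosome 13 (34746479 to 34751618) was similar, with 5140 and 4210 bp called in the controls and 251 bp with siRNA-1. Its best summits in the controls were 1070 bp apart, against 5 to 116 bp in the 10 strongest siRNA-1-only regions.

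A region on chromosome 20 (36613668 to 36617225) kept 2384 bp with siRNA-1, against 3315 and 3207 bp in the controls, although no siRNA-2 peak overlapped it. The nearest siRNA-2 peak was 2.09 kb away. A region on chromosome 11 (32727458 to 32730171) kept 2283 bp against 2502 and 2714 bp. In these 2 regions most of the control call was still present with siRNA-1, and the siRNA-2 list held nothing there. The other 6 were on chromosome 5 (55735873 to 55738821), chromosome 7 (115605111 to 115610275), chromosome 13 (102300733 to 102303051 and 113758535 to 113760828), chromosome 19 (42407404 to 42409585) and chromosome 20 (43021296 to 43024706).

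Over the 10 siRNA-2-only regions the called length ranged from 2079 to 5140 bp in control 1, from 2026 to 4822 bp in control 2 and from 251 to 2384 bp with siRNA-1 (median 680 bp). The siRNA-1 call was 5.37 to 87.5% of the control mean (median 30.1%). As in the other set, the library that kept the call had less called than both controls in each of the 10. Here too the ranking by strength in the controls favours this.

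**Figure D2:**
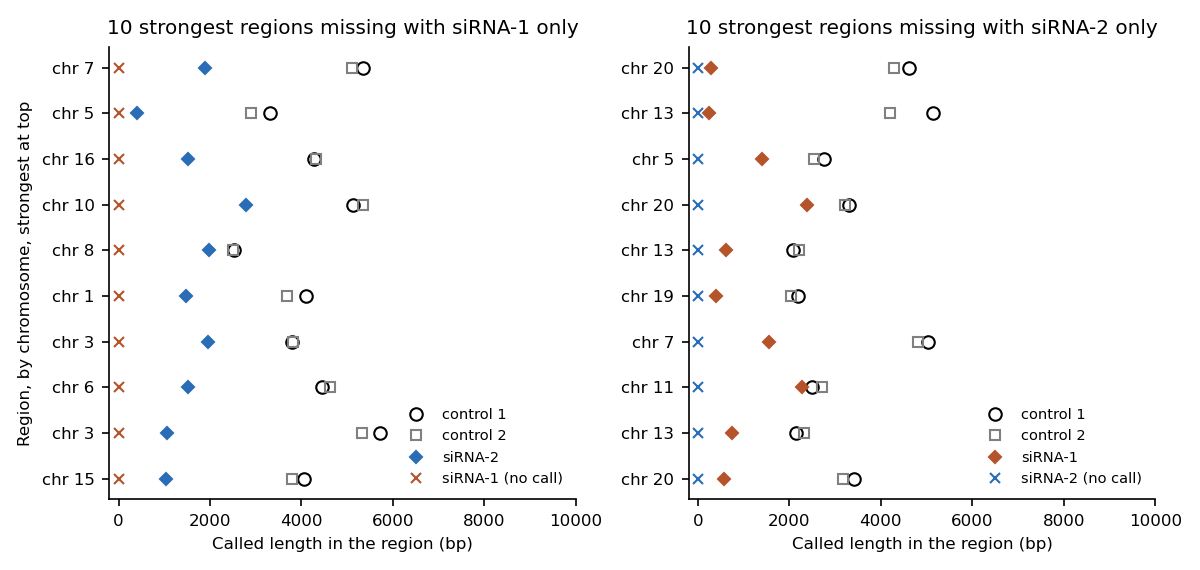
Called length in bp (x axis) in each library for the 10 strongest siRNA-1-only regions (left) and the 10 strongest siRNA-2-only regions (right), 1 region a row; circles and squares are the controls, diamonds the siRNA library that kept the call, and crosses at 0 the library without one. In all 20 regions the diamond lies to the left of both control symbols, at 395 to 2785 bp on the left and 251 to 2384 bp on the right. The regions were ranked by strength in the controls, which favours this order.

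Members were narrow beside the regions called everywhere. Median width was 917.5 bp for siRNA-1-only regions (quartiles 625 to 1552 bp) and 973 bp for siRNA-2-only regions (670 to 1519 bp). It was 692 bp for regions missing with both siRNAs and 2075 bp for the 24133 regions called in all 4 libraries. A wide region has more room to meet a peak of each library, so the rule itself favours narrow members. Wide members were more frequent in the siRNA-1-only set: 36 of its regions were 4 kb wide or more (1.89%, 1.37 to 2.60%), against 12 siRNA-2-only regions (0.675%, 0.387 to 1.18%). At 1 kb or more the order was the other way, with 46.2% and 48.2%. The order of the median widths depended on the merging, and with peaks within 1 kb stitched they were 1475 and 1375 bp. Strong members had median widths of 1779 and 1671 bp, and members that were not strong 751 and 830 bp.

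The widest siRNA-1-only region was on chromosome 8 (62942587 to 62949849), 7263 bp wide, with 7263 bp called in control 1, 6792 bp in control 2 and 432 bp with siRNA-2. Its nearest siRNA-1 peak was 126 kb away. Regions on chromosome X (24890601 to 24897660; 7060 bp) and chromosome 12 (42372246 to 42379215; 6970 bp) came next. The siRNA-2 call on chromosome X was broken into 6 peaks with 2709 bp in all, where each control had 2. The widest siRNA-2-only regions were the chromosome 7 and chromosome 13 regions named above, 5165 and 5140 bp wide, and a region on chromosome 11 (27441322 to 27446207) of 4886 bp. None of them reached the width of the 3 widest siRNA-1-only regions.

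Where a region was missing with 1 siRNA, the other siRNA's call was often short as well. In siRNA-1-only regions the median called length was 724 bp in control 1, 616 bp in control 2 and 450 bp with siRNA-2. In siRNA-2-only regions it was 746.5 bp in control 1, 580 bp in control 2 and 534.5 bp with siRNA-1. In regions called in all 4 libraries the medians were 1589, 1471, 1646 and 1492 bp in control 1, control 2, siRNA-1 and siRNA-2. The lists as a whole differ in the same sense for siRNA-2, whose list was the shortest, so the share of the control mean is read against the regions called in all 4 libraries. The siRNA-2 call had a median of 71.8% of the control mean in siRNA-1-only regions and 97.2% in regions called everywhere. The siRNA-1 call had a median of 83.0% in siRNA-2-only regions and 104.6% in regions called everywhere.

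Among strong members the remaining call was a smaller part of the control mean, with medians of 48.5% (siRNA-2) and 58.0% (siRNA-1). Strong members were picked by high values in the controls alone, which by itself favours this. The strong regions called in all 4 libraries passed the same filter, but it sets only a floor and does not match strength. A strength of 20 or more was reached by 58.1% of all regions called in all 4 libraries. It was reached by 13.3% of siRNA-1-only and 6.24% of siRNA-2-only regions. Regions called in all 4 libraries also need a call with each siRNA, so the shares below are a description only. The remaining call was shorter than both control calls in 526 of 612 strong siRNA-1-only regions (85.9%, 83.0 to 88.5%) and in 362 of 452 strong siRNA-2-only regions (80.1%, 76.2 to 83.5%). In strong regions called in all 4 libraries this held for 49.0% with siRNA-2 and 38.4% with siRNA-1. The remaining call was under 50% of the control mean in 52.1% of strong siRNA-1-only and 42.5% of strong siRNA-2-only regions, against 7.44% and 6.96% of strong regions called in all 4 libraries. A like pattern was seen where a control had no call, among regions with a best −log10 q of 10 or more in both knockdown libraries. Of 258 such regions missing from control 1 only, control 2 called less than both knockdown libraries in 93.4%, and of 288 missing from control 2 only, control 1 did so in 91.7%. In regions of that strength called in all 4 libraries the shares were 46.9% for control 2 and 36.1% for control 1. The remaining control call was under 50% of the knockdown mean in 81.0% (missing from control 1 only) and 68.75% (missing from control 2 only). Both shares were above the 52.1% and 42.5% of the siRNA sets, so a strongly shortened remaining call was not particular to those sets. A short remaining call thus went with a missing call in either direction, also between the controls. The part that weak signal near the calling threshold has in it was not tested. Not every member was shortened: in 371 siRNA-1-only regions (19.4%) and 545 siRNA-2-only regions (30.7%) the remaining siRNA call was longer than both control calls.

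**Figure D3:**
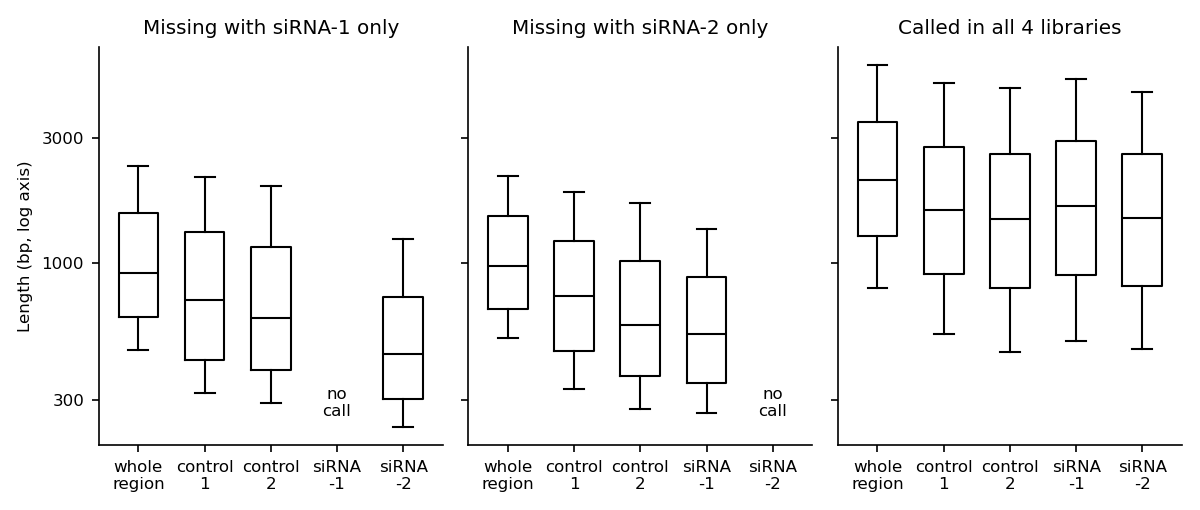
Length in bp on a log axis of whole regions and of the bases called in each library, for siRNA-1-only regions, siRNA-2-only regions and regions called in all 4 libraries; the line is the median, the box the quartiles and the whiskers percentiles 10 and 90. The remaining siRNA call is the shortest of the 3 in both sets, with medians of 450 and 534.5 bp, while in regions called in all 4 libraries the 4 medians lie between 1471 and 1646 bp.

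The 2 controls differed over all regions called in both, where control 2 called less than control 1 in 67.1%. The share was near this in siRNA-2-only regions (68.1%) and lower in siRNA-1-only regions (62.1%), so the difference was not particular to the members. Ranked within each list by −log10 q, siRNA-1-only regions had a median percentile of 42.3 in control 1 and 40.6 in control 2. Those of siRNA-2-only regions were 40.2 and 36.5. Regions called in all 4 libraries had medians of 71.7 and 71.2. Both sets thus came mostly from the lower part of the control lists, with 616 and 615 members under a strength of 5. The weakest had strengths of 1.33 and 1.35.

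The position of the summit, the highest point of a peak, was alike in both sets. The best summits of control 1 and control 2 were a median of 92 bp apart in siRNA-1-only regions and 110 bp apart in siRNA-2-only regions, against 69 bp in regions called in all 4 libraries. The best summit of the remaining siRNA lay a median of 106 bp (siRNA-2) and 127 bp (siRNA-1) from that of control 1. The control 1 summit was in the central part of the region, leaving out an equal stretch on each side, in 57.7% and 55.8% of members, and in 64.1% of regions called everywhere. Its median position along the region was 0.494 and 0.498 of the width. Summits lay to either side of the centre about equally in both sets, and were outside the central part more often than in regions called everywhere. The summit that remained with the other siRNA was about as far from that of control 1 as the summit of control 2 was. An exception was the widest siRNA-1-only region, where the siRNA-2 summit lay 4619 bp from that of control 1.

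The surroundings of the members were measured by the distance to the nearest peak of the library without the call. The median was 12529.5 bp for siRNA-1-only regions (quartiles 2.34 to 41.6 kb) and 7834 bp for siRNA-2-only regions (1.71 to 24.2 kb). Close misses were about as frequent in both, with a peak of the missing library within 1 kb in 327 regions (17.1%) and 328 regions (18.4%). From 10 kb on the sets were apart: the missing library had a peak within 10 kb of 46.4% of siRNA-1-only (44.2 to 48.7%) and 55.8% of siRNA-2-only regions (53.5 to 58.1%). The missing library had no peak within 100 kb of 215 siRNA-1-only regions (11.3%, 9.93 to 12.8%) and of 90 siRNA-2-only regions (5.06%, 4.14 to 6.18%). The siRNA-1 list has fewer peaks than the siRNA-2 list but covers more bases, and the part of this in the distances was not tested. The nearest region called in all 4 libraries, which is the same list for both sets, was also farther away from siRNA-1-only regions, at a median of 17.2 kb against 10.1 kb. Such a region needs a call with each siRNA, so this distance is not separate from the distance to a peak of the missing library. The nearest other region called in both controls, whatever the siRNA calls, was at similar medians of 4331.5 bp from siRNA-1-only and 3984 bp from siRNA-2-only regions.

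The median distance to a peak of the missing library was longer for siRNA-1-only regions in each of the 4 alternatives run on it. With peaks within 1 kb stitched it was 21380.5 and 14349 bp, and at equal called length 20323 and 9826 bp. Among strong members the medians were 13.8 and 8.87 kb. The most remote strong siRNA-1-only regions were 3 neighbours side by side on chromosome 9 (105602095 to 105604944), 845 to 846 kb from any siRNA-1 peak. They were called over 636, 850 and 986 bp in control 1, 591, 909 and 1005 bp in control 2, and 339, 766 and 465 bp with siRNA-2. These 3 regions share a site and are not independent examples. The most remote strong siRNA-2-only regions were on chromosome 4 (70698618 to 70699294; 501 kb), chromosome X (11478843 to 11481241; 295 kb) and chromosome 11 (107067648 to 107068594; 260 kb). Their siRNA-1 calls were 282, 253 and 419 bp long.

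At the edge of the rule, the siRNA-1-only region nearest to an siRNA-1 peak was 6 bp from it (chromosome 2, 181386225 to 181387082), and the siRNA-2-only region nearest to an siRNA-2 peak was 4 bp from it (chromosome 8, 103810780 to 103812231). Just outside, regions called in all 4 libraries owed the siRNA-1 call to as little as 20 bp of overlap (chromosome 22, 41214897 to 41215848) and the siRNA-2 call to as little as 8 bp (chromosome 6, 127427250 to 127428254). With members within 1 kb of a peak of the missing library left out, 1581 and 1450 regions remained, and 551 and 403 strong ones.

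Members had a neighbour of their own set more often than one of the other set. Another siRNA-1-only region was within 100 kb of 36.5% of siRNA-1-only regions (34.3 to 38.7%) and of 19.9% of regions called in all 4 libraries. Another siRNA-2-only region was within 100 kb of 37.2% of siRNA-2-only regions (35.0 to 39.5%) and of 22.96% of regions called in all 4 libraries. The other set was not near in this way: an siRNA-2-only region was within 100 kb of 18.1% of siRNA-1-only regions, and an siRNA-1-only region of 18.9% of siRNA-2-only regions. The median distance to the nearest other siRNA-1-only region was 217818 bp from siRNA-1-only regions, and to the nearest siRNA-2-only region 484538 bp. From siRNA-2-only regions it was 220502 bp to the same set and 465978 bp to the other. Members were thus nearer to their own set than to the other. Gathering was not confined to these sets: another region missing with both siRNAs was within 100 kb of 63.4% of the regions missing with both, and of 34.9% of regions called in all 4 libraries. With the controls in place of the siRNAs the picture was mixed. Regions missing from control 2 only had their own kind within 100 kb in 18.8% and regions missing from control 1 only in 11.6%, while regions missing from control 1 only had their own kind in 14.2% and the other kind in 16.5%. Around regions called in all 4 libraries, these kinds were found in 15.9% (missing from control 2 only) and 10.6% (missing from control 1 only).

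Part of the gathering was very local, since another region of the same set was within 10 kb of 16.0% and 14.9% of members, and of the other set of 3.25% and 3.43%. How many of these neighbours are pieces of 1 acetylated stretch was not tested. The order was kept between 10 and 100 kb, where a region of the same set was found for 25.1% of siRNA-1-only and 28.1% of siRNA-2-only regions and one of the other set for 15.8% and 16.2%. For regions called in all 4 libraries these shares were 16.95% (siRNA-1-only neighbours) and 19.6% (siRNA-2-only neighbours). With peaks within 1 kb stitched together, the shares within 100 kb were 24.2% for the same and 13.7% for the other set around siRNA-1-only regions, and 23.1% and 15.2% around siRNA-2-only regions.

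Along the chromosome, the next region called in both controls was again siRNA-1-only after 12.7% of siRNA-1-only regions, where 5.95% of all such regions were. After siRNA-2-only regions it was siRNA-2-only in 9.90%, where 5.54% of all were. It belonged to the other set in 4.25% and 4.22%. After siRNA-1-only regions it was missing with both siRNAs in 18.4%, above the 13.3% of all regions, and after siRNA-2-only regions in 13.4%. Regions missing with both siRNAs thus stood next to siRNA-1-only regions more often than next to siRNA-2-only regions.

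**Figure D4:**
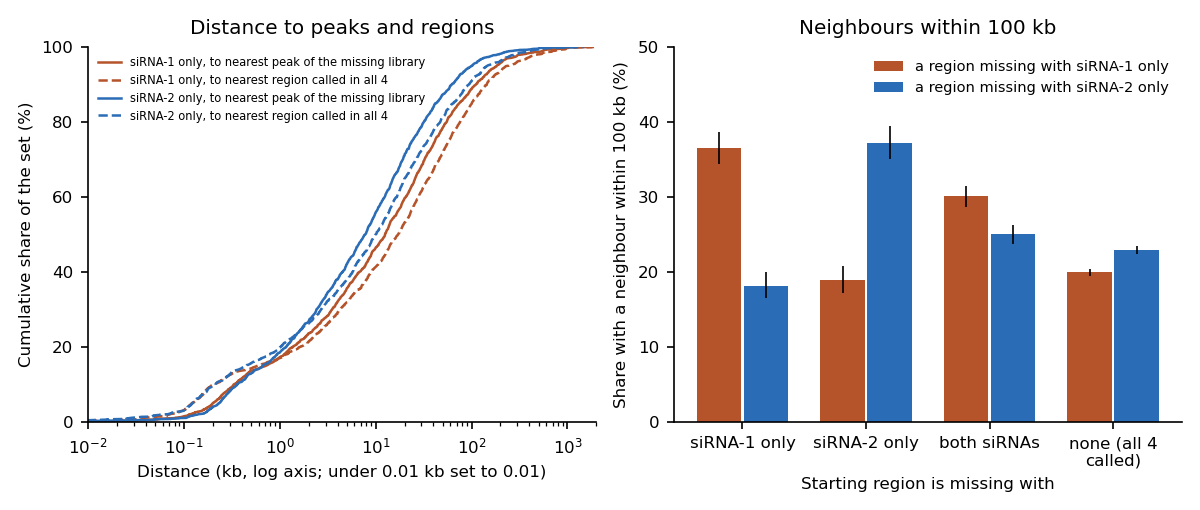
Left, cumulative percent of siRNA-1-only and siRNA-2-only regions by distance in kb (log axis) to the nearest peak of the library without the call (solid) and to the nearest region called in all 4 libraries (dashed). Right, percent of regions with an siRNA-1-only or an siRNA-2-only region within 100 kb, by the kind of starting region, with Wilson 95% intervals; the same-set bars, 36.5% and 37.2%, are the highest.

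In bins of 1 Mb, 186 held 3 or more siRNA-1-only regions and 164 held 3 or more siRNA-2-only regions, of 2565 bins with a region called in both controls. There were 15 bins with 3 or more of each. In 85 bins 3 or more siRNA-1-only regions stood with 0 siRNA-2-only regions, and in 68 bins the reverse held. Over all 2565 bins, 1116 held an siRNA-1-only region, 1059 an siRNA-2-only region and 532 both, so most bins had 0 of a given set. The 85 and 68 bins thus do not show that the sets lie apart. The counts of bins with 3 or more rest on the rule for the controls. Such bins numbered 314 and 306 without control 1, and 303 and 329, in the other order, without control 2. With peaks within 1 kb stitched there were 116 and 83 such bins, and at equal called length 520 and 8.

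The bin with the most siRNA-1-only regions was on chromosome 12 (50000001 to 51000000). It held 8 siRNA-1-only regions, 1 siRNA-2-only region, 8 missing with both and 16 called in all 4 libraries. Over the whole bin, peaks of control 1 and control 2 covered 38.7 and 35.5 kb, and those of the siRNA-1 and siRNA-2 libraries 18.6 and 22.7 kb. Both siRNA libraries were therefore below both controls there, with siRNA-1 the lower. The 8 members were 358 to 2165 bp wide and lay 0.136 to 54.3 kb from an siRNA-1 peak.

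Next came a bin on chromosome 5 (95000001 to 96000000) with 7 siRNA-1-only regions and a bin on chromosome 7 (101000001 to 102000000), also with 7, picked from 9 bins with 7 by their number of strong members. In the chromosome 5 bin the 7 members summed to 11134 bp called in control 1, 11140 bp in control 2 and 5298 bp with siRNA-2. All 7 were called shorter with siRNA-2 than in both controls. In the chromosome 7 bin the controls had 83.8 and 74.9 kb called, the siRNA-1 library 34.6 kb and the siRNA-2 library 55.4 kb. No siRNA-2-only region lay in that bin. In these 3 bins siRNA-2 had less called than the controls and siRNA-1 less again. The bins were picked for regions called in both controls and not with siRNA-1, so a low siRNA-1 length was favoured in advance.

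The bins with the most siRNA-2-only regions, 6 each and picked likewise from 9, were on chromosome 19 (39000001 to 40000000), chromosome 1 (181000001 to 182000000) and chromosome 2 (234000001 to 235000000). In the chromosome 19 bin the controls had 127 and 119 kb called, the siRNA-1 library 122 kb and the siRNA-2 library 108 kb. The chromosome 2 bin had 129 and 122 kb called in the controls, 129 kb after siRNA-1 and 93.6 kb after siRNA-2. In the chromosome 1 bin these lengths were 23.1 and 21.9 kb for the controls, 28.2 kb for siRNA-1 and 20.5 kb for siRNA-2. In contrast to the siRNA-1-only bins, siRNA-1 was within or above the control values in all 3, and siRNA-2 was below them. The choice of bins by missing siRNA-2 calls favours this contrast. The members themselves differed between the 3 bins. The 6 on chromosome 19 had 2268 bp in all called with siRNA-1, beside 7311 and 7140 bp in the controls, and 5 of the 6 were called shorter than in both controls. The 6 on chromosome 1 had 3852 bp beside 6591 and 5258 bp, with 3 of 6 shorter. The 6 on chromosome 2 had 5384 bp beside 6305 and 4682 bp, with 1 of 6 shorter.

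Unbroken runs, in which every region called in both controls belonged to the same set, were short. The longest had 5 regions in each set. The siRNA-1-only run was on chromosome 1 (100147281 to 100435912), with 4163, 4086 and 2819 bp called in control 1, control 2 and siRNA-2. The siRNA-2-only run was on chromosome 5 (53733462 to 54038468), with 10408, 8193 and 5369 bp called in control 1, control 2 and siRNA-1. In each, 4 of the 5 members had less called with the remaining siRNA than in both controls. Runs of 3 or more numbered 34 for siRNA-1-only and 18 for siRNA-2-only regions.

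The chromosomes differed in which set was larger. There were more siRNA-1-only regions on 12 of 23 chromosomes and fewer on 11. On 3 chromosomes the 95% intervals of the 2 shares did not overlap, and on all 3 siRNA-1-only regions were the more frequent. These intervals treat regions as independent, although members gathered near their own set. They also make no allowance for the comparison of 23 chromosomes. Chromosome 12 had 127 siRNA-1-only regions (7.32%, 6.19 to 8.65%) and 75 siRNA-2-only regions (4.33%, 3.46 to 5.39%). Chromosome 8 had 111 (7.25%) and 70 (4.57%), and chromosome 7 had 132 (7.26%) and 90 (4.95%). The same 3 chromosomes had more strong siRNA-1-only regions, with 46 against 16 on chromosome 12, 36 against 13 on chromosome 8 and 47 against 23 on chromosome 7. On chromosome 9 there were 29 strong siRNA-1-only and 9 strong siRNA-2-only regions.

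Chromosome 20 went the other way, with 31 siRNA-1-only regions (3.48%, 2.46 to 4.90%) and 52 siRNA-2-only regions (5.84%, 4.48 to 7.57%). Its 2 intervals overlapped, and it was among the 11 chromosomes with fewer siRNA-1-only regions. Chromosome 19 had low shares of both, with 39 (3.31%) and 51 (4.33%). Another measure, the part of each set that lay on chromosome 19, was 2.04% of siRNA-1-only and 2.87% of siRNA-2-only regions. Its order turned at equal called length, with 2.94 and 2.05%. These 2 chromosomes also had the highest median strength of regions called in both controls, 22.1 and 21.7, and strong regions were seldom members. The part of strength in the chromosome shares was not tested. A549 cells carry extra and rearranged chromosomes, and the copies of each were not analysed here.

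**Figure D5:**
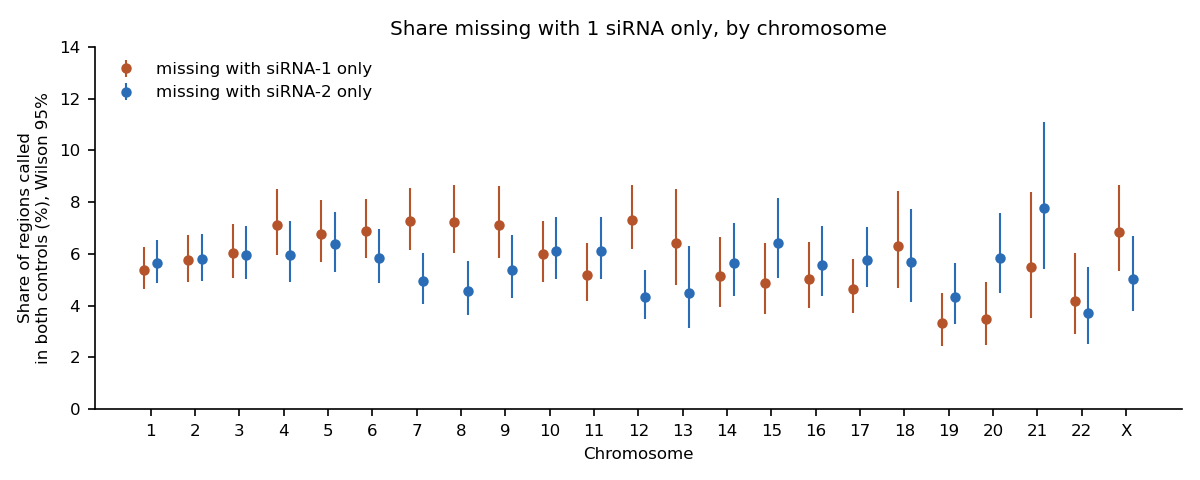
Percent of the regions called in both controls that were siRNA-1-only or siRNA-2-only, by chromosome, with Wilson 95% intervals. The 2 intervals are apart on chromosomes 7, 8 and 12, where siRNA-1-only regions were the more frequent, and both shares are low on chromosome 19.

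Genes and sequences at these regions were not used here, since the peaks are on build hg19 and no annotation of that build was used.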

How the data were processed

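Per the labels' protocols, sonicated A549 nuclei were immunoprecipitated for H3K27ac and sequenced as single-end reads of 101 bases. Build hg19, MACS2 2.2.7.1, SAMtools 1.7.0 and BWA 0.7.17 were named per the submitters' processing notes; their options, and any use of the input, were not given in the sources used here. The 4 deposited peak lists give, per library, each peak's position, its fold enrichment as a ratio, −log10 p and −log10 q, and a score derived by the authors from −log10 q; the score and −log10 p were not used. The 4 input libraries were not analysed here on their own.

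Peaks were merged and counted with Python 3.11.15, pandas 2.3.3, numpy 2.4.6 and scipy 1.17.1, and drawn with matplotlib 3.10.9. Merging and counting were tested on simulated data. Regions named were, per set, the 10 strongest, the 3 widest, the 3 strong ones farthest from a peak of the missing library, the 3 bins of 1 Mb with most members (ties by strong members, then genome order), and those nearest the rule's edge. The longest runs, chromosomes with intervals apart and chromosomes 9, 19 and 20 were picked after their values were seen. The members and the rule were chosen with earlier results of these data known. Each siRNA had 1 library, so no test was made; shares carry Wilson 95% intervals. Measures planned on genes, base composition and motifs were not made. Alternatives changed the merging distance, the definition of a call, thresholds, list size and the controls required.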

Additional observations from a re-analysis of the deposited data

How the results depend on the processing

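In this order, siRNA-1-only regions, siRNA-2-only regions and their difference were 1908, 1778 and 130, and for strong regions 612, 452 and 160. Stitching peaks within about 13 kb gave 889 and 697 regions. Requiring a −log10 q of 10 wherever a region was called left 202 and 165, a difference of 37. That threshold in every list gave 1030 and a difference of -215. A call over 50% of the bases called in both controls gave a difference of -255. Equal called length gave 3808, 440 and 3368, and for strong regions 1958, 186 and 1772; by construction it cut the lists with the most called bases, leaving siRNA-1 with 27931 peaks, control 1 with 31176 and siRNA-2 with 48216. Equal numbers of peaks gave a difference of -19. A strong threshold of 5 gave 1292 and 1163, and of 20 gave 254 and 111. For the other reversals and moves the cause was not tested.

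Without each control in turn, the counts were 2595 to 2622 and 2471 to 2700, with differences from -78 (without control 2) to 124; strong counts were 840 to 960 and 623 to 840, with differences from 120 to 217. Fewer calls are then required. Of 56 medians, shares and bin counts under alternatives, 46 moved beyond their interval, or by over 1.5 times for bin counts, and 10 did not. Set side by side, the order of the 2 sets was kept in 22 of 28 comparisons, tied in 1 and turned in 5. It turned for median width with stitching within 1 kb (1475 and 1375 bp), for bins without control 2 (303 and 329), for the share on chromosome 19 at equal called length (2.94 and 2.05%), for same-set neighbours with stitching (24.2 and 23.1%) and for other-set neighbours at equal numbers of peaks (19.3 and 18.9%). In every alternative run on it, the share with a same-set region within 100 kb stayed above that with a region of the other set. Equal numbers of peaks and shares within 100 kb were chosen after seeing the data. No paired analysis was possible because the results come from no test and the label numbers pair 1 library with 1. Unknown depth limits every missing call.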

Other observations

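Outside chromosomes 1 to 22 and X, unplaced contigs of the build held 28 regions called in both controls, of which 3 were siRNA-1-only, 3 siRNA-2-only, 3 missing with both siRNAs and 19 called in all 4 libraries. The decoy sequence held 70 regions called in both controls, of which 4 were siRNA-1-only, 2 siRNA-2-only, 20 missing with both and 44 called in all 4 libraries.

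The nearest peak of the missing library belonged to a region shared by all 4 libraries for 76.7% of siRNA-1-only and 78.0% of siRNA-2-only regions. For 7.34% of siRNA-1-only regions it lay in a region called with siRNA-1 alone, and for 5.79% of siRNA-2-only regions in a region called with siRNA-2 alone. For 5.40% and 5.17% it lay in a region of the opposite set.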
